A study of Mus musculus with 3 samples.

Results

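The 37 genes described here are markers of blood and lymphatic endothelial cells and of pericytes, together with the ligands that act on them: blood endothelial genes and transcription factors including the VEGF and TIE receptors, the lymphatic genes Lyve1 and Prox1, the pericyte genes Rgs5 and Pdgfrb, and the ligands Vegfa, Vegfb, Vegfc, Angpt1 and Angpt2. They were chosen by name and found on the arrays by RefSeq accession, and a gene was measured if a probe was well above background in at least 1 channel on all 3 arrays. By that rule 35 of the 37 were measured, of 19327 genes and unnamed features in all. RNA came from whole brown adipose tissue of male mice, 10 weeks old and kept on regular chow. Each of 3 two-colour Agilent arrays set 1 Ad-Lkb1 sample (Cy5; strain name C57BL/6J) against 1 wild-type sample (Cy3; strain name C57BL/6), described as littermates and as 3 biological replicates per genotype, and the series names deletion of liver kinase B1 (LKB1, encoded by Stk11) as the change. Whether a sample was 1 animal or a pool is not given in the sources used here. The Cre line, the allele and the deleted exons are not given in the sources used here. Every array had the same dye orientation, so dye, strain name and genotype cannot be told apart.

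Capillaries of brown fat carry oxygen and fuel to the heat-producing adipocytes. Adipocytes secrete vascular endothelial growth factors, which bind the receptor tyrosine kinases KDR (VEGFR2), FLT1 (VEGFR1) and FLT4 (VEGFR3) on endothelial cells and drive sprouting, and VEGF signalling through KDR activates the endothelial nitric oxide synthase NOS3. Angiopoietin 1 activates the endothelial receptor TEK (TIE2) and stabilises vessels, while angiopoietin 2 can oppose it. ETS factors such as ERG and FLI1, together with SOX7, SOX17 and SOX18, maintain endothelial identity.

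ETS factors recognise a GGAA core, and the promoters of the 3 VEGF and TIE receptors whose ratios lay below 0 on all arrays are shown for that reason. The RefSeq table (GRCm38.p6) held a window for 18 of the 37 genes. The 19 without one include Angpt1, Nos3, Vwf, Pecam1, Cdh5, Sox7, Sox17, Sox18 and Fli1. The 250 bases before the start are printed 5′ to 3′, with matches to GGAAGT on either strand in capitals.
Kdr, chr5:75978456-75978705, minus strand: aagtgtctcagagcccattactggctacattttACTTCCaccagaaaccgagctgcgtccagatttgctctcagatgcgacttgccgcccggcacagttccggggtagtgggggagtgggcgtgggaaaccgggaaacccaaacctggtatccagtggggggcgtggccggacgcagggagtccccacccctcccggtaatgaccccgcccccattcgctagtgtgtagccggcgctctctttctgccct
Flt1, chr5:147726012-147726261, minus strand: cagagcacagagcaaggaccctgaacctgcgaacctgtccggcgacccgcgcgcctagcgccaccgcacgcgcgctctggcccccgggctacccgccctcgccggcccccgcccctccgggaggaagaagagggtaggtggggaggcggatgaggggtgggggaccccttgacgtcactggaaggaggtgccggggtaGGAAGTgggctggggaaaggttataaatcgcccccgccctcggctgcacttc
Tie1, chr4:118489850-118490099, minus strand: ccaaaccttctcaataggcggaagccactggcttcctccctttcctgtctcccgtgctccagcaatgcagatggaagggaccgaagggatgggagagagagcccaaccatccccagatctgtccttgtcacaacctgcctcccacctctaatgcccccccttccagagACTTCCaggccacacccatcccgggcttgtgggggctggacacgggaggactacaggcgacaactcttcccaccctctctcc
Each of these 3 windows held 1 match to GGAAGT, ending 211 bases before the start in Kdr, 46 in Flt1 and 76 in Tie1. All 3 also hold other GGAA cores, which are not marked or counted. Over the listed genes, 6 of 24 windows (25%) held GGAAGT on either strand, those of Egfl7, Eng, Flt1, Kdr and Tie1. Of 32851 windows in the table, 19.7% did, so the share among vessel genes was near that of promoters in general. A GC box (GGGCGG, either strand) was in 12 of 24 windows (50%) and in 32.7% of all windows. A SOX motif (ACAATG) was in 1 of 24 (4.17%), against 10.7% of all windows. A TATA box (TATAAA) was in 3 (12.5%), against 12.4%. The 24 windows belong to 18 genes. A match is a description of letters and not a bound site.

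Mean log2 ratios of the vessel genes ran from -1.01 to 0.53, and 4 of the 35 measured genes passed the threshold. The ligand gene Angpt1 was 2.01-fold higher in wild type, Nos3 was 1.41-fold and Kdr 1.34-fold higher in wild type, and Vwf, which encodes von Willebrand factor, was 1.32-fold higher in Ad-Lkb1 tissue. Of all features tested, 8.70% passed the same threshold (limma, Benjamini-Hochberg adjusted p under 0.05), 3.92% lower and 4.78% higher in Ad-Lkb1 tissue, so 3 lower and 1 higher of 35 is near the share among all genes. The median log2 ratio of the 35 genes was -0.23, against -0.0099 over all features. The mean ratio was below 0 for 25 of the 35 genes, and for 52.3% of all features. An unadjusted p under 0.05 was found for 11 of the 35 genes (31.4%) and for 29.3% of all features. In bulk tissue, fewer vessel cells and less RNA per cell cannot be told apart.

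**Figure D1:**
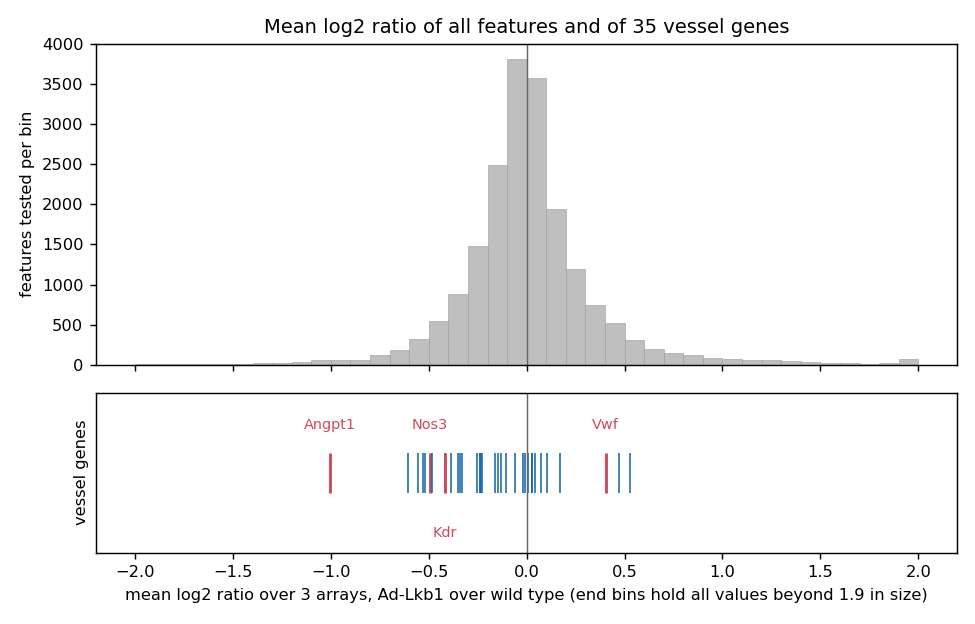
Top, number of features tested per bin of 0.1 of the mean log2 ratio over 3 arrays (Ad-Lkb1 over wild type). Bottom, the 35 measured vessel genes on the same axis, red where the adjusted p was under 0.05. Most vessel genes lie within 0.6 of 0, more of them below 0 than above, and Angpt1 stands apart at -1.01.

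The median of the 35 genes was 0.026 on array 1, -0.34 on array 2 and -0.050 on array 3. On array 2, 29 of 35 were below 0, against 17 on array 1 and 22 on array 3. Ratios lay below 0 on all 3 arrays for 10 genes and above 0 on all 3 for 3 genes (27.7% and 24.0% of all features), and 22 genes had both signs. Vessel genes also varied more between arrays than most genes. Their median SD was 0.27 on the log2 scale against 0.15 over all features, and 8 of 35 (22.9%) had an SD over 0.5 against 5.27% of all features. Among the 17 vessel genes of middle intensity (between their quartiles, 7.65 and 10.2 on the log2 scale), 3 had such an SD, against 7.96% of the 6278 features in that intensity range. The same 17 had a median ratio of -0.24 against -0.068 for those features.

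Settings mattered for these counts. With median centring in place of the intensity-dependent loess fit, the median of all features moved to -0.42 and that of the vessel genes to -0.81, and 0 vessel genes were called higher and 26 lower. Of all 19327 features, 389 were then called higher and 9708 lower. With array 1 or array 2 left out, limma called 0 vessel genes and 0 features in all. At an unadjusted p under 0.05 there were then 9 and 7 vessel genes, and 3928 and 3562 features. When array 3 was the one left out, 8 vessel genes and 2052 features in all passed (among vessel genes Esam, Ptprb, Sox7, Sox18, Vegfb and Angpt1 lower, Cd34 and Lyve1 higher).

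**Figure D2:**
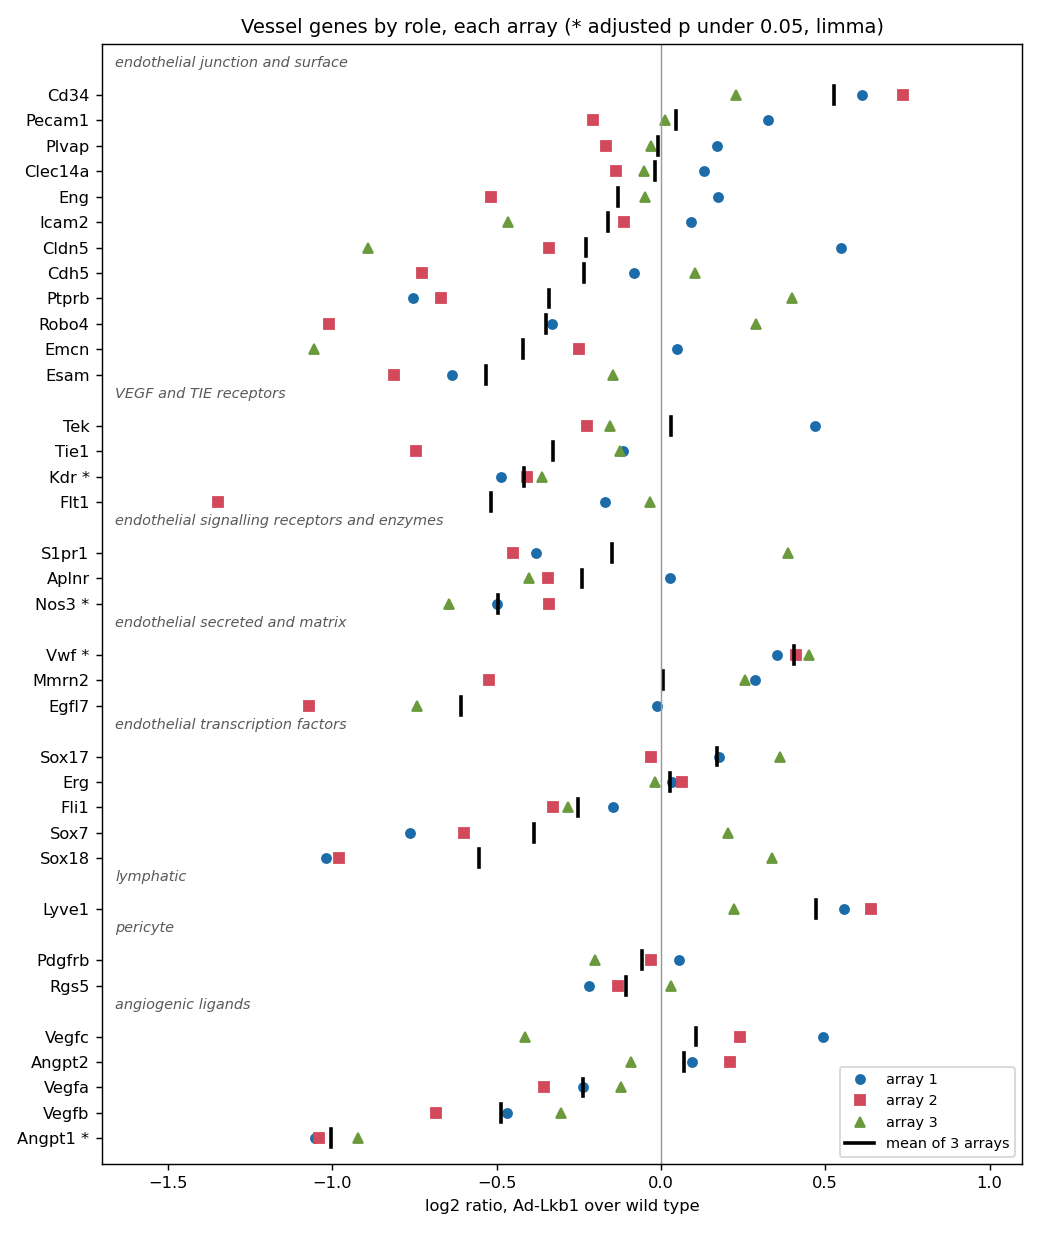
Log2 ratio (Ad-Lkb1 over wild type) of each measured vessel gene on arrays 1, 2 and 3, grouped by role, with the mean as a black bar and an asterisk where the adjusted p was under 0.05. Angpt1, Kdr, Nos3 and Vwf have 3 points close together, while Flt1, Cldn5, Sox18 and Robo4 are spread widely.

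Among the ligands, Angpt1 (NM_009640) had the lowest ratio of all listed genes. Its normalized log2 intensity in wild type was 8.69, 8.60 and 8.50 on arrays 1 to 3, and in Ad-Lkb1 tissue it was 7.63, 7.56 and 7.58. All wild-type samples were above all Ad-Lkb1 samples. The share of all features whose levels do not overlap is not given here. Separation of levels, for this gene and those below, is therefore a description and no added evidence. The log2 ratio was -1.05, -1.04 and -0.92 on the arrays, with a mean of -1.01 (SD 0.072, n = 3 arrays, SE 0.071, adjusted p = 0.0121), at percentile 0.776 of all ratios. A single probe measured it, well above background in both channels on all arrays. Angpt1 passed the threshold in all 9 alternative settings that used every array, with log2 ratios from -1.57 to -1.005, and without array 3 (-1.05). Without array 1 or array 2 it had -0.98 and -0.99 and did not pass (adjusted p = 0.133 and 0.0916). Angpt2, the context-dependent antagonist, had 0.095, 0.21 and -0.092 (mean 0.072, 95% confidence interval -0.16 to 0.30, adjusted p = 0.647).

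The VEGF ligands did not pass. Vegfb, a ligand of FLT1 linked to fatty acid uptake, had -0.47, -0.69 and -0.30 on arrays 1 to 3 (mean -0.49, SD 0.19, adjusted p = 0.0555). Its wild-type levels of 11.33, 11.41 and 11.14 all lay above the Ad-Lkb1 levels of 10.86, 10.72 and 10.84. Vegfa, the main driver of sprouting, had -0.24, -0.36 and -0.12 (mean -0.24, interval -0.45 to -0.028, adjusted p = 0.136), and the other of its 2 kept probes had a mean of -0.31. Its groups overlapped, since 1 Ad-Lkb1 sample, at 11.27, lay above 2 wild-type samples at 11.23 and 11.25. Vegfc, the lymphatic ligand of FLT4, went from 0.49 and 0.24 on arrays 1 and 2 to -0.42 on array 3 (mean 0.11, adjusted p = 0.765). The 3 ligands of lower ratio, Angpt1, Vegfb and Vegfa, were below 0 on every array, and Vegfc and Angpt2 were below 0 only on array 3.

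Of the receptors, Kdr (NM_010612) fell. Its levels were 10.28, 10.39 and 10.43 in wild type and 9.80, 9.99 and 10.07 in Ad-Lkb1 tissue, with no overlap. The log2 ratio was -0.49, -0.41 and -0.36, with a mean of -0.42 (SD 0.063, n = 3, SE 0.070, adjusted p = 0.0400). The other kept probe of Kdr had -0.34, -0.97 and -1.17 (mean -0.83), so both probes were below 0 on all arrays and their sizes differed most on array 3. Kdr did not pass in 4 settings that used all arrays. Its ratio was -0.37 with unsubtracted signals (adjusted p = 0.0802), -0.37 when the offset was 10 (adjusted p = 0.0930), -0.23 from the processed signals of the scanner software (adjusted p = 0.491) and -0.35 in the deposited table (adjusted p = 0.176).

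Flt1, which binds VEGF-A and VEGF-B and can act as a decoy, had -0.17, -1.35 and -0.034 (mean -0.52, SD 0.72, adjusted p = 0.310). Array 2 set that mean: without it the ratio was -0.10. On array 2 the wild-type level of Flt1 was 11.06, against 10.35 and 10.34 on the others, and the Ad-Lkb1 level was 9.71, against 10.18 and 10.30. Tie1, the orphan partner of TEK, had the same form, with -0.11, -0.75 and -0.12 (mean -0.33, adjusted p = 0.244). Tek itself, the receptor of Angpt1, had 0.47, -0.23 and -0.15 (mean 0.030, interval -0.39 to 0.45, adjusted p = 0.931). Flt4 was not measured: its 1 probe exceeded background on a single array per channel.

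**Figure D3:**
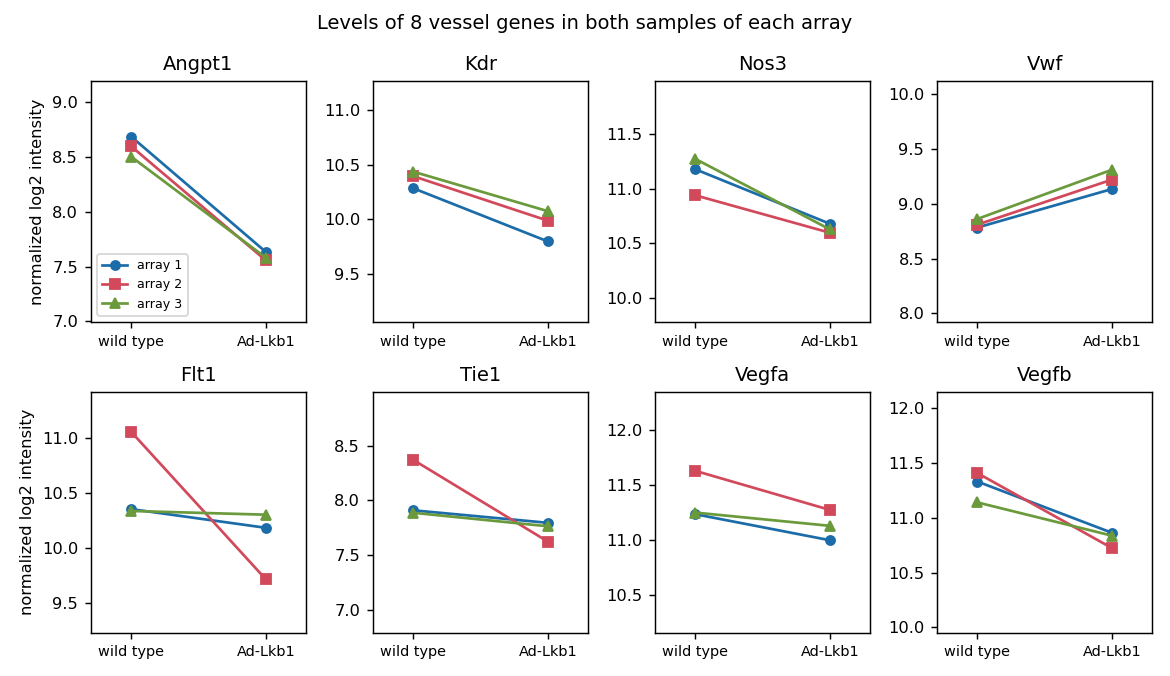
Normalized log2 intensity of 8 vessel genes in the wild-type and the Ad-Lkb1 sample of each array, joined by a line per array; each panel spans 2.2 log2 units. Angpt1, Kdr, Nos3 and Vwf slope alike on all arrays, and Flt1 and Tie1 slope steeply on array 2 only.

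Nos3 (NM_008713), the nitric oxide synthase of endothelium, fell. Its levels in wild type were 11.18, 10.94 and 11.27, and in Ad-Lkb1 tissue 10.68, 10.60 and 10.63, without overlap. The log2 ratio was -0.50, -0.34 and -0.64 (mean -0.49, SD 0.15, n = 3, SE 0.087, adjusted p = 0.0438). The other kept probe had -0.41, -0.66 and -0.99, again below 0 on all arrays. The call was lost in 5 settings: unsubtracted signals, an offset of 10, processed signals, the deposited table and no filter on dim probes (adjusted p from 0.0642 to 0.219). The sphingosine 1-phosphate receptor gene S1pr1, which stabilises junctions, had -0.38, -0.45 and 0.39 (adjusted p = 0.660). The apelin receptor gene Aplnr had 0.026, -0.34 and -0.40 (mean -0.24, adjusted p = 0.238).

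Vwf (NM_011708), stored in endothelial Weibel-Palade bodies and in platelets, was the 1 listed gene that rose. Its levels were 8.78, 8.81 and 8.86 in wild type and 9.14, 9.22 and 9.31 in Ad-Lkb1 tissue, without overlap. The log2 ratio was 0.35, 0.41 and 0.45 (mean 0.40, SD 0.049, n = 3, SE 0.068, adjusted p = 0.0408). The direction turned with median centring, where Vwf had -0.25 and did not pass (limma adjusted p = 0.144). The median of all features was then -0.42, and Vwf lay 0.17 above that median. From processed signals (0.55) and in the deposited table (0.43) it did not pass either. Of the platelet markers, Ppbp had 0.16, Gp9 0.0059 and Treml1 0.034, none past the threshold, and Itga2b, Gp1ba and Gp1bb were not measured. Pf4, a platelet chemokine that macrophages also express, rose by 1.95 on the log2 scale (adjusted p = 0.0142).

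The other secreted proteins did not pass. Egfl7, which is secreted by endothelium into its matrix, had -0.012, -1.07 and -0.74 (mean -0.61, SD 0.54, adjusted p = 0.154), the lowest mean after Angpt1. Mmrn2, an endothelial matrix protein that binds CLEC14A, had 0.29, -0.52 and 0.26 (mean 0.0058, adjusted p = 0.989).

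None of the 12 genes of endothelial junctions and surface passed the threshold, and 2 (16.7%, against 29.3% of all features) had an unadjusted p under 0.05. Their median log2 ratio was -0.19, and 0.11, -0.29 and -0.040 on the arrays. Esam, a tight junction adhesion molecule, had -0.64, -0.81 and -0.15 (mean -0.53, SD 0.34, adjusted p = 0.0994). Cd34, a sialomucin of capillary endothelium and of stromal progenitor cells, had 0.61, 0.74 and 0.23 (mean 0.53, SD 0.27, limma adjusted p = 0.0710), the highest mean of the list. Its dimmer kept probe had 0.060. With median centring the ratio of Cd34 was -0.18, where the median of all features was -0.42. Esam and Cd34 were the genes of this group with 1 sign on all arrays.

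None of the defining adhesion molecules passed. Pecam1 (CD31) had 0.33, -0.21 and 0.013 (mean 0.045, interval -0.28 to 0.37). Cdh5, which encodes VE-cadherin, had -0.083, -0.73 and 0.10 (mean -0.24, interval -0.71 to 0.24). With median centring Pecam1 (-0.45), Cdh5 (-0.85) and Plvap (-0.54) passed as lower, as did 9708 of all 19327 features. The median of all features was then -0.42. Relative to that median Pecam1 had -0.031, Cdh5 -0.43 and Plvap -0.11. Plvap, the protein of fenestral diaphragms, had a mean of -0.0093 and a second probe at 0.032, and Clec14a had -0.018. Eng, a co-receptor of the TGF-beta family, had -0.13 and Icam2 had -0.16.

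Of the 12 junction and surface genes, 10 had ratios of both signs over the arrays, and 4 of these had an SD over 0.5. Cldn5, the claudin of endothelial tight junctions, had 0.55, -0.34 and -0.89, and the sialomucin gene Emcn had 0.050, -0.25 and -1.06, both highest on array 1 and lowest on array 3. Ptprb, the phosphatase VE-PTP that restrains TEK, ran the other way with -0.75, -0.67 and 0.40, and its other kept probe had -0.49, -0.67 and 0.13. Robo4, a guidance receptor of endothelium, had -0.33, -1.01 and 0.29. Their SDs ranged from 0.57 for Emcn to 0.73 for Cldn5, larger than each mean.

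Of the 5 endothelial transcription factors, 0 passed the threshold and 1, Fli1, had an unadjusted p under 0.05 (20%, against 29.3% of all features). Sox18 had -1.02, -0.98 and 0.34 (mean -0.55, SD 0.77, adjusted p = 0.308) and Sox7 had -0.76, -0.60 and 0.20 (mean -0.39, SD 0.52, adjusted p = 0.303). Both were low on arrays 1 and 2 and above 0 on array 3, as were Ptprb and S1pr1. The levels of Sox18 were 8.28 and 8.70 in the wild-type samples of arrays 1 and 2 and 7.67 in that of array 3, whereas in Ad-Lkb1 tissue they were 7.26, 7.72 and 8.003. The related Sox17 had 0.18, -0.029 and 0.36 (mean 0.17, adjusted p = 0.338), with a second probe at 0.19. Fli1 had -0.15, -0.33 and -0.28 (mean -0.25, SD 0.095, adjusted p = 0.112). Erg had 0.034, 0.063 and -0.017 (mean 0.027), near the detection limit, and its wild-type signal exceeded background on 2 arrays.

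Lymphatic and pericyte genes did not pass. Lyve1, a hyaluronan receptor of lymphatic endothelium and of some tissue macrophages, had 0.56, 0.64 and 0.22 (mean 0.47, SD 0.22, adjusted p = 0.0684), with a wild-type signal above background on 2 arrays. Its ratio lay between 0.29 and 1.56 in the other settings. Prox1, the lymphatic master regulator, was not measured, with 0 arrays above background in either channel. Rgs5, an abundant pericyte gene, had -0.22, -0.13 and 0.031 (mean -0.11, interval -0.32 to 0.11), and Pdgfrb, the receptor that recruits pericytes, had 0.056, -0.031 and -0.20 (mean -0.059, interval -0.28 to 0.16).

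Sample levels differed by array. Among the 3 wild-type samples, that of array 2 had the highest level for 21 of the 35 vessel genes (60%), against 32.0% of all features. Among the 3 Ad-Lkb1 samples, that of array 2 had the lowest level for 16 of 35 (45.7%), against 26.7% of all features. The wild-type samples also differed more from each other in vessel genes, with a median SD of 0.21 on the log2 scale against 0.11 over all features, than did the Ad-Lkb1 samples (0.12 against 0.095). Across the 35 genes, which share arrays and are not replicates, Pearson's r was 0.67 between arrays 1 and 2, 0.010 between 1 and 3, and 0.16 between 2 and 3. Over all features it was 0.73, 0.36 and 0.50.

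A wider list of 103 other vessel genes, of which 92 were measured, had 6 genes higher and 3 lower, again near the 8.70% of all features. In the VEGF pathway the co-receptor Nrp2 had -0.44, -0.87 and -1.09 (mean -0.80, adjusted p = 0.0442), 1 of 8 measured genes to pass. Among 7 fat capillary genes Tcf15, a transcription factor of fat and muscle capillaries, had -0.63, -0.92 and -1.41 (mean -0.99, adjusted p = 0.0398), and 0 rose. Of 12 mural cell genes, Cspg4 (NG2) of pericytes fell (-0.44, adjusted p = 0.0470) and Cnn1, smooth muscle calponin, rose (1.05, adjusted p = 0.0195). Of 17 other vascular ligands and receptors, 3 rose and 0 fell: the angiogenesis inhibitor Thbs1 (0.98), the BMP modulator Bmper (0.85) and the vasodilator peptide Adm (0.46). Stab1, a scavenger receptor of sinusoidal endothelium and macrophages, rose by 0.89, 1 of 17 other endothelial markers. Pdpn, expressed by lymphatic endothelium and also by fibroblasts and macrophages, rose by 1.09, 1 of 2 measured lymphatic genes. Notch pathway (7 measured), arterial (5), venous and activated (6) and other endothelial transcription factor (11) genes had 0 calls by limma, with 1, 1, 2 and 1 of them at an unadjusted p under 0.05, where 29.3% of all features lay.

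Markers of other cells moved between genotypes and between arrays alongside these genes. Stk11 fell by 1.20 on the log2 scale (limma adjusted p = 0.0105). Whether its probe lies in the deleted part is not given in the sources used here. Brown adipocyte markers rose in 4 of 7 cases, among them Ucp1 by 1.48, and 0 were called lower. Adipoq (-0.13) and Plin1 (-0.26) did not pass. Nor did Ppargc1a, with -0.94, 0.13 and 1.98 on arrays 1 to 3. Macrophage markers rose in 6 of 9 cases, with list medians of 1.80, 2.04 and 1.04 on arrays 1 to 3, and Mrc1 and Cd68 had 1.63 and 2.24. The other 3, Itgam (-0.093), Cd14 (-0.027) and Ptprc (0.59), did not pass and were below 0 on array 3. Macrophages can also express Lyve1, Stab1, Pdpn and Pf4, which were not drawn from a full list of such genes. Stab1 and Pdpn were named because they passed as higher, and the filter kept Lyve1 through its Ad-Lkb1 signal. Their ratios above 0 on all 3 arrays, as for 24.0% of all features, are therefore a description and no added evidence. Fibroblast markers rose in 4 of 6 cases with medians of 0.69, 1.02 and 0.73, and Pdgfra, shared with Cd34-positive stromal cells, had 0.57. Erythroid markers had medians of 0.54, 0.31 and -0.47 with 0 of 4 past the threshold, and T and B lymphocyte markers had 0 of 3. Mast cell markers had 3 of 5 higher and 1 lower. Skeletal muscle markers, 3 of 7 measured, had medians of -3.44, 2.36 and 4.27. Of the 5 mesothelial markers 1 was measured, Lrrn4 at -0.29. The part of these cells in the vessel gene ratios was not tested.

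**Figure D4:**
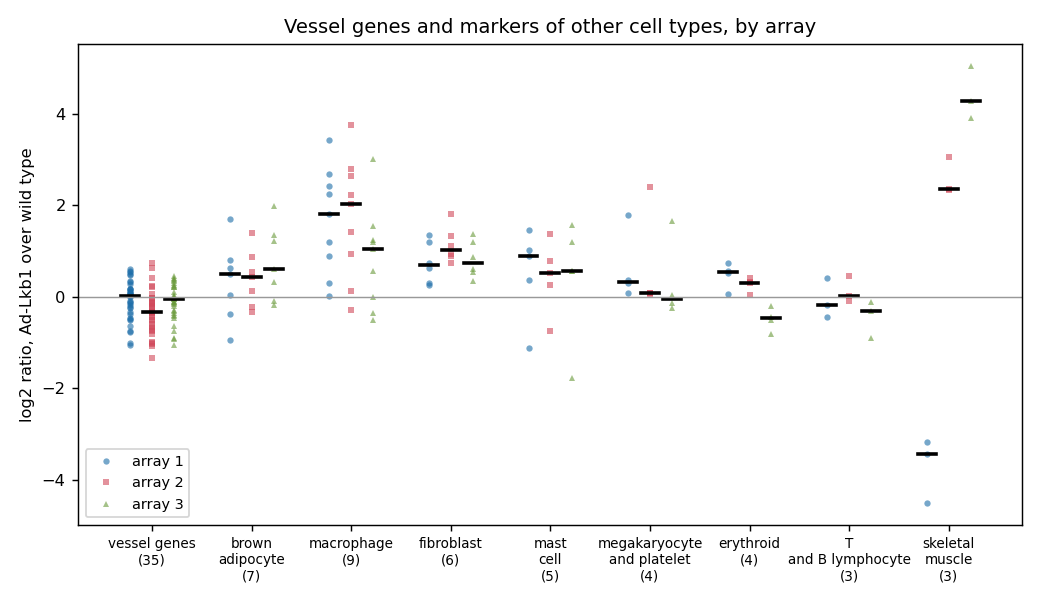
Log2 ratio (Ad-Lkb1 over wild type) of the 35 vessel genes and of the measured markers of 8 other cell types, whose numbers stand below each name, on arrays 1 to 3, with black bars at the medians. Vessel gene medians are 0.026, -0.34 and -0.050 on arrays 1 to 3, macrophage markers lie mostly above 0, and skeletal muscle markers swing from -3.44 to 4.27.

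Across the settings tried, Angpt1 was the steadiest of the 4 called genes. In the plot of these genes by setting, 9 alternatives used all arrays. Of these, Kdr passed the threshold in 5, Nos3 in 4 and Vwf in 6. None of Kdr, Nos3 and Vwf passed when an array was left out. Without array 1 or array 2, however, no feature of any kind passed.

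**Figure D5:**
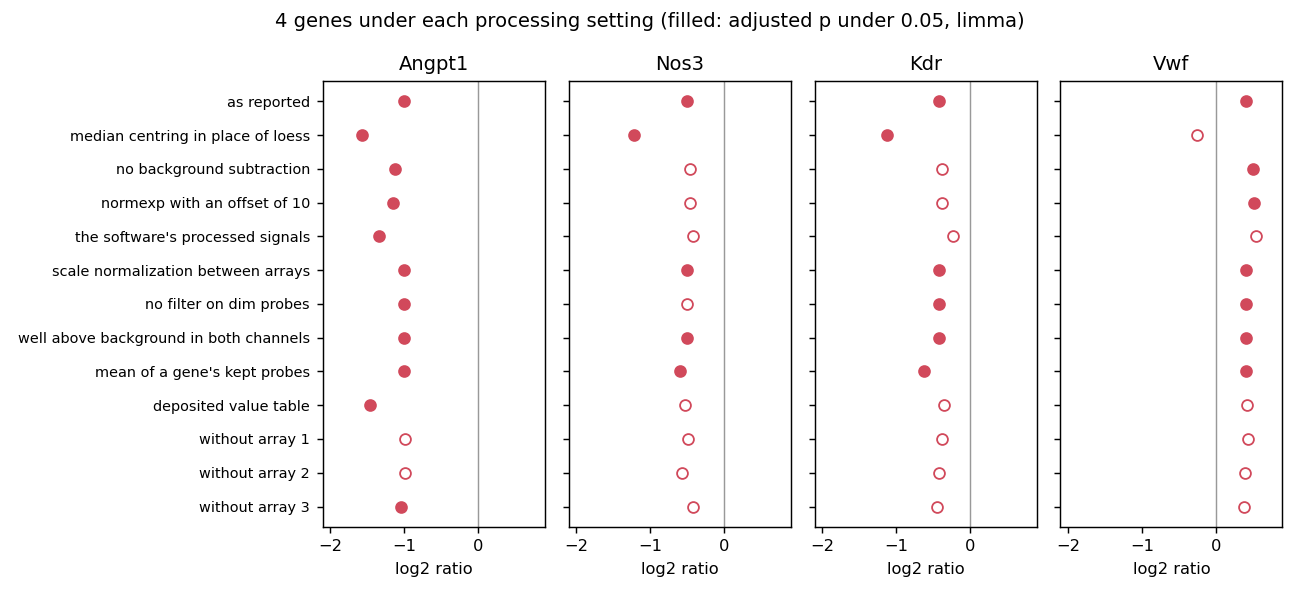
Log2 ratio of Angpt1, Nos3, Kdr and Vwf as reported and under 12 other settings, filled where the adjusted p was under 0.05. Angpt1 stays at or below -0.98 under every setting shown, while Vwf crosses 0 with median centring, where the median of all features was -0.42.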

How the data were processed

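The submitters' processing notes name Agilent Feature Extraction 11.5. Per the file headers, it gave each spot's median intensity and that of its surroundings in both channels, processed signals, and a log10 ratio of Cy5 over Cy3. The deposited value table matched that log10 ratio on each array (correlation 1, largest difference 0.00494 in log10 units, column medians 0), so scale, centring and direction were known. The software had set 26.8% to 27.8% of the deposited ratios to 0. Of the non-control features, 46.7% to 51.3% were well above background in a channel and 0 were saturated. The median green (wild-type) signal was 51 to 53.5 over a background of 43 to 44. In red (Ad-Lkb1) it was 21 to 23 over a background of 17. The number of arrays, 3, limits the precision.

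The log2 ratios used limma 3.58.1 in R 4.3.3, with normexp (offset 50) and loess within arrays with control spots at weight 0. Outlier spots and 3 empty or incomplete features were left out, and spots of a probe averaged. Of 55678 probes 25030 exceeded background in 1 or both channels on every array, and the brightest represented each gene. Symbols came from RefSeq accessions (GRCm38.p6), and no array coordinates were used. The log2 ratio was tested against 0 (lmFit, eBayes, two-sided), adjusted by Benjamini-Hochberg over 19327 features at a threshold of 0.05. The samples are described as littermates, and the ratio within an array pairs 1 sample of each genotype. Levels per sample are log2 intensities after loess and Aquantile normalization, compared within a probe only. Intervals are 95% of the moderated fit, and the offset understates folds of dim genes. The procedure was also run on simulated intensities with independent noise at each spot. These did not model the differences between arrays seen in vessel genes, and no result here rests on that run.

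Genes named beyond the 37 were Stk11, Ucp1, those past the threshold in fixed lists of other vessel genes, up to 3 per list, and cell type markers. Members, lists and the motif search were chosen with earlier results of these data known, and the plots' examples after their values were seen.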

Additional observations from a re-analysis of the deposited data

How the results depend on the processing

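Over 35 vessel genes and 12 alternatives, scale normalization changed no direction and no call, and the stricter filter on both channels changed none of the 33 genes it kept (it left no lymphatic gene). With median centring 26 vessel genes and 10097 features passed (389 higher, 9708 lower). The median over vessel genes became -0.81, and by role -0.86 for junctions and surface, -0.99 for receptors, -0.76 for signalling, -0.69 for secreted proteins, -0.76 for transcription factors, -0.70 for pericytes and -0.95 for ligands. Pecam1 (-0.45), Cd34 (-0.18), Tek (-0.41), Vwf (-0.25), Mmrn2 (-0.69), Sox17 (-0.13), Vegfc (-0.34) and Angpt2 (-0.15) turned negative. Of these, Pecam1 and Mmrn2 lay below the median of all features, -0.42, and the rest above it. Unsubtracted signals gave 2 calls among vessel genes, role medians of -0.40 (signalling), 0.76 (lymphatic) and -0.021 (pericyte), and turned signs for Plvap (0.057), Erg (-0.067) and Pdgfrb (0.0077). An offset of 10 gave 2 calls, -0.42, 0.92 and -0.025 for the same roles, and Plvap at 0.062. Processed signals gave 1 call, 1113 features past the threshold (883 higher, 230 lower), -0.41, 1.56 and 0.092 for those roles, -0.10 for ligands, and turned signs for Icam2 (0.017), Plvap (0.11), S1pr1 (0.0076), Erg (-0.044), Rgs5 (0.099) and Pdgfrb (0.084). Without a filter on dim probes 1033 of 36794 features passed, and the lymphatic median was 0.21. Averaging probes put Plvap at 0.011. The deposited table gave 1 call, 806 features (526 higher, 280 lower), -0.53, 1.44 and -0.030 for those roles, and Erg at -0.17. The cause of these shifts was not tested.

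Leaving out 1 array at a time gave 0 to 8 calls among vessel genes and 0 to 2052 features. The receptor median ranged from -0.44 to -0.11 (the latter without array 2) and the signalling median from -0.42 to -0.19. Signs turned for Pecam1 (-0.097 to 0.17), Cdh5 (-0.40 to 0.011), Cldn5 (-0.62 to 0.10), Clec14a (-0.093 to 0.041), Plvap (-0.098 to 0.070), Eng (-0.28 to 0.062), Tek (-0.19 to 0.16), S1pr1 (-0.42 to 0.0024), Mmrn2 (-0.13 to 0.27), Pdgfrb (-0.12 to 0.012) and Vegfc (-0.088 to 0.37). Each array holds 1 sample per genotype, so the ratio already pairs them. With 3 arrays, and Erg and Lyve1 near background, small differences were not detectable.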
